A study of Acromyrmex echinatior with 18 samples.

Results

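RNA editing was described in the kinase and phosphatase genes of the leaf-cutting ant Acromyrmex echinatior. The genes were chosen by name: the annotated protein name contains the word kinase or phosphatase, leaving out genes whose fly ortholog is S6k, Cdk9, Argk or Tap42 (4 genes with 57 sites) and sites annotated to a pair of genes. The rule found 74 of the 1433 genes in the table of editing sites, with 378 of the 6977 sites that lie in 1 gene (17229 sites in all). The rule itself used no editing level, but the group was chosen with earlier results of these data known. Heads of gynes (winged females that can found a colony), large workers and small workers were taken from 3 colonies, Ae322, Ae356 and Ae363, here called A, B and C. This gave 9 RNA libraries, 1 per caste and colony, from pools of 50 heads of gynes or large workers or 200 heads of small workers, and 9 matching DNA libraries from the bodies. All colonies were collected at one place in Panama and kept in the laboratory on the same diet, no agent was given, and no age is stated. A library is thus 1 pool of 1 colony, so the spread within a caste is a spread among colonies. The p-values of genes rest on that spread, moderated over all genes. Those of single sites rest on 1 spread shared by all sites and not on the site's own, unless stated. The table lists edited positions and not the expression of genes, so markers of head tissue were not analysed here.

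RNA editing changes single bases of an RNA after it is transcribed. In animals the ADAR enzymes turn adenosine into inosine in double-stranded RNA, and sequencing reads inosine as G, so this kind of editing appears as an A-to-G change. Kinases add phosphate groups to proteins, lipids or small molecules and phosphatases remove them. Between them they carry signals from membrane receptors, calcium and stress to the nucleus and to synapses, and in nervous tissue they set how excitable a neuron is. A head holds brain, glands, muscle and fat body. In such bulk samples a change in the share of cells that edit a transcript and a change in editing within each cell cannot be told apart.

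The sites of these genes lay mostly outside coding sequence. Introns held 188 of the 378 sites (49.7%) and 3' untranslated regions (3' UTRs) held 158 (41.8%), against 45.0% and 45.6% over all genes. Coding sequence held 22 sites (5.82%, against 4.30%), of which only 4 were A-to-G changes, and the 5' UTR held 10. A-to-G changes made up 342 sites (90.5%, against 93.6% over all genes), and 83 sites (22.0%, against 30.0%) overlapped a transposable element. Sites stood close together: the next site in the same gene was a median of 11 bases away (10 over all genes), and 74.0% of neighbours were within 50 bases. The authors had called 74 sites in all 9 libraries (19.58%, against 20.45% over all genes) and 27 in 1 library (7.1%, against 6.4%).

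A few genes held most of the sites. The 12 genes with at least 10 sites held 230 of them, while 29 genes had a single site. CG1227 (Aech_09723), a serine/threonine kinase of the STK16 family, led with 42 sites, all A-to-G and all intronic, between positions 310372 and 317925 of scaffold 185 (assembly Aech_2.0). It was followed by Aech_01708, named 4-nitrophenylphosphatase after a laboratory substrate, with 26 intronic sites on scaffold 7 between 1448491 and 1450190. IA-2 (Aech_03247), a receptor-type tyrosine phosphatase homolog that in flies and mammals sits in the membrane of dense-core vesicles, had 22 sites on scaffold 569, of which 19 were in the 3' UTR. Aech_06052, the alpha chain of calcium/calmodulin-dependent kinase II (CaMKII), had 20 sites spread over 17262 bases of scaffold 433, 18 of them in the 3' UTR. Sac1 and CkIIalpha had 19 each, CG4733 had 18, bsk 17, msn 14 and CG34384 13. Casein kinase II alpha (CkIIalpha) was mostly edited in introns, with 17 of its 19 sites there, whereas all sites of Sac1, bsk and CG34384 were in the 3' UTR.

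**Figure D1:**
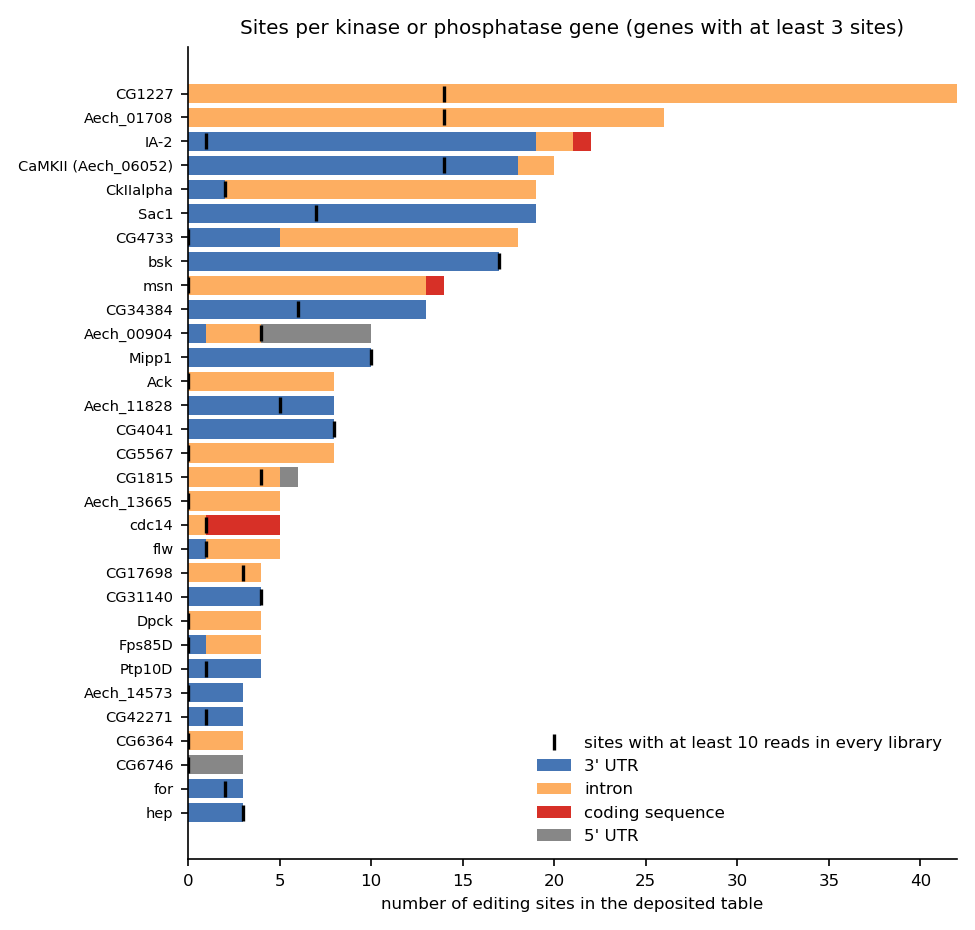
Number of editing sites (x axis) in each kinase or phosphatase gene with at least 3 sites, coloured by the annotated element. The black mark gives how many sites had at least 10 reads in every RNA library: 14 of 42 in CG1227, all 17 in bsk, 1 of 22 in IA-2 and 0 of 18 in CG4733.

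The editing level of a site is the share of its reads in a library that carry the edited base, in percent. Tests used sites that 10 or more RNA reads covered in each of the 9 libraries, and a gene's level is the mean over these sites. That left 149 of the 378 sites (median 57 reads per library) and 46 of the 74 genes. At the edge of this rule, 11 sites had 10 reads in their shallowest library and were kept, and 11 had 9 and were left out. Reads at all sites numbered 479998 in the shallowest RNA library (large workers, colony B) and 1037408 in the deepest (small workers, colony B), and those over the kinase and phosphatase sites from 12581 in gynes of colony C to 29895. In DNA, each of the 378 sites was covered by 10 reads or more in every library, and 0 DNA reads carried the edited base. The 3 small worker libraries were the deepest, and the authors had called 273 to 294 of the 378 sites in each of them, against 196 to 209 in gynes and 179 to 273 in large workers. As a mean over libraries, that was 75.9% of sites in small workers, 53.6% in gynes and 57.7% in large workers. Over the sites of all genes it was 77.3, 55.5 and 58.1% in the same order. The part of depth in these counts of called sites was not tested.

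Averaged over the 46 tested genes, the level was 6.62% ± 0.730 in gynes, 7.39% ± 0.577 among large workers and 8.50% ± 0.560 among small workers (SD, n = 3 colonies each). Gyne libraries stood at 7.44, 6.04 and 6.37% in colonies A, B and C, large worker libraries at 8.05, 6.96 and 7.16%, and small worker libraries at 7.98, 8.44 and 9.09%. Small workers were thus above gynes in every colony, by 0.539 points in colony A and up to 2.72 in the others. Over all 700 tested genes of the series the same means were 7.28% ± 0.205, 8.54% ± 0.348 and 10.0% ± 0.109. The distance from gynes to small workers was therefore 1.89 points in these genes and 2.75 points over all genes, so that relative to the mean of each library the kinase and phosphatase genes shifted by -0.860 points from gynes to small workers. These means are a description and carry no test.

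The kind of base change divided the genes. Of the 46 tested genes, 23 had at least 1 tested A-to-G site, and their mean level was 10.8% ± 0.726 in gynes, 12.3% ± 0.357 among large workers and 14.9% ± 0.853 among small workers. In the libraries of colonies A, B and C these genes stood at 11.7, 10.3 and 10.6% in gynes, 12.7, 12.0 and 12.2% among large workers and 13.9, 15.5 and 15.2% among small workers, so that no 2 castes overlapped. All 434 such genes of the series went from 10.2% to 14.6%, a distance of 4.33 points beside 4.05 points here. The other 23 genes (50.0%, against 38% over all genes) had only other changes at tested sites, and stood at 2.39% ± 0.735, 2.48% ± 0.807 and 2.11% ± 0.812. Their castes overlapped. With the reads of all libraries summed, single tested A-to-G sites ranged from 1.10% to 97.5%, and single tested sites with other changes from 0.298% to 7.77%.

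**Figure D2:**
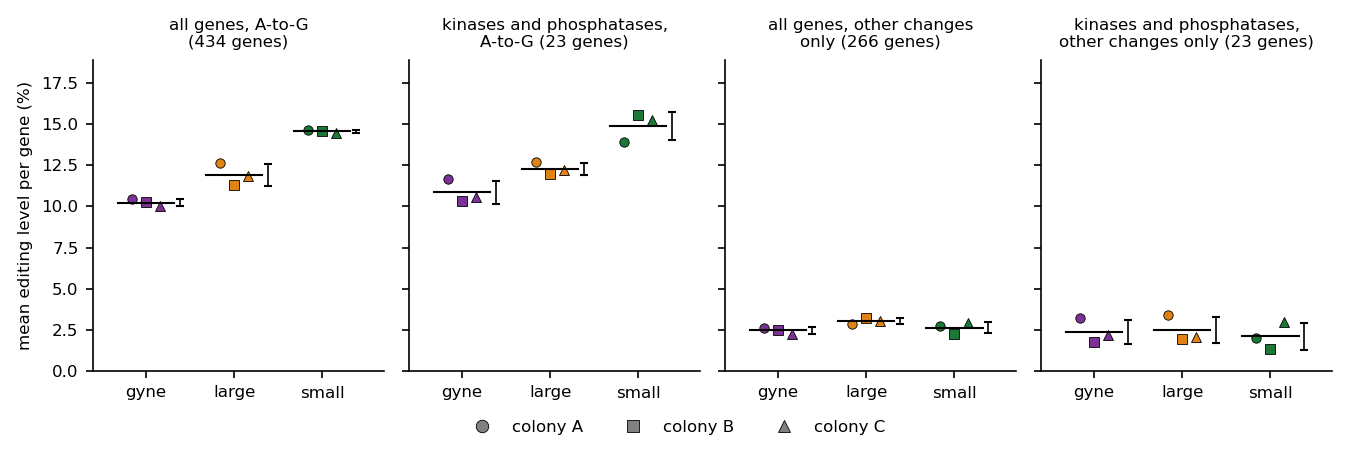
Mean editing level per gene (y axis, percent) in each of the 9 RNA libraries, for genes with and without a tested A-to-G site, in all genes and in kinase and phosphatase genes. Lines are caste means, bars are ± 1 SD over 3 colonies, and symbols mark the colony. In the 23 kinase and phosphatase genes with A-to-G sites the means go from 10.8% in gynes to 14.9% in small workers, and in the 23 without they stay between 2.11% and 2.48%.

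The question of the study's design was which genes and sites are edited differently between castes. Each gene was tested with limma on the arcsine-square-root of its level, in 1 fit over all 700 genes and 9 libraries, with Benjamini-Hochberg adjustment at 0.05. None of the 46 genes passed in any of 5 comparisons. Over all genes 1.14% passed among the 3 castes, 2.29% between gynes and small workers, 0% between gynes and large workers, 0% between large and small workers and 0.571% between gynes and both worker castes. At an unadjusted p under 0.05, limma gave 8, 9, 7, 4 and 6 of the 46 genes in the same order, that is, beside 17%, 20.4%, 8.71%, 11.7% and 16.7% of all genes. The fit on log odds also called 0 of them in each comparison.

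Direction was mostly towards the workers. The mean was higher in small workers than in gynes in 32 genes and lower in 11, and 3 had a mean of 0 in both. Over all genes 70.9% were higher and 24.3% lower. Large workers had a higher mean than gynes in 28 genes (61.4% of all genes) and a lower one in 15 (32.1%), small workers a higher mean than large workers in 29 (62.4%) and a lower one in 14 (34.1%), and both worker castes together a higher mean than gynes in 33 (75.9%) and a lower one in 13 (24.1%). In 13 of the 46 genes all small worker libraries were above all gyne libraries (25.1% of all genes), and in 0 genes they were all below (1.14%). Large workers did not overlap with gynes in 6 genes on the higher side (12.4% of all genes) and in 1 on the lower side (1.57%), and small workers stood clear above large workers in 4 (15.9%) and clear below in 0 (2.71%). Both worker castes together stood clear above gynes in 6 genes (9%) and clear below in 0 (0.286%). Among the 23 genes with A-to-G sites, 21 had a higher mean in small workers (82.5% of all such genes) and 11 did not overlap (38.9%). The median difference between gynes and small workers was 1.47 points over the 46 genes and 1.83 points over all genes.

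Single sites were tested on their read counts with a quasi-binomial model whose dispersion, 1.88, was shared by all 5720 sites of the series that passed the read minimum. Of the 149 kinase and phosphatase sites, 6 passed among the castes (6.36% of all sites), 6 between gynes and small workers (8.23%), 1 between gynes and large workers (0.472%), 0 between large and small workers (0.874%) and 5 between gynes and both worker castes (4.13%). Split by direction, the shares of all sites called were 8.09% higher and 0.14% lower in small workers than in gynes, 0.437% and 0.035% in large workers than in gynes, 0.857% and 0.0175% in small than in large workers, and 3.95% and 0.175% in both worker castes than in gynes. In the comparison with no call, 12 sites had an unadjusted p under 0.05 with this model and 10 with limma. The share of all sites under that p is not given here, so no reading is drawn from these counts. All kinase and phosphatase sites called between 2 groups were higher in the workers: 6, 1 and 5 sites. Counted once, they were 8 sites in 7 genes, namely CaMKII with 2, and bsk, Lk6, CG1227, BubR1, Sac1 and CG1815 with 1 each. The calls depended on the dispersion. When each site kept its own, none of the 8 passed (adjusted p 0.145 to 0.712), and 0 of the 5720 sites were called. When each caste was compared within its colony (replicate block), the dispersion was shared far less (prior degrees of freedom 1.12, against infinite above), and again 0 sites were called, with adjusted p of 0.189 to 0.594 at the 8. With the block and 1 shared dispersion, a fit chosen after seeing the data, every call at the 8 sites held (1.7e-07 to 0.0311). Below, the value with the block is given first without and then with the shared dispersion. Leaving out 1 library also made the sharing partial (prior degrees of freedom 4.58 to 15.8). In those 9 fits the CG1815 call between gynes and small workers held in 8, its call among the castes in 3 and the bsk call in 2. Every other call at the 8 sites ended in all 9 fits. Below, calls without 1 library are given with a dispersion shared in full, likewise chosen after seeing the data. Measured by site, dispersion was above the shared value at 3 of the 8: 24.6 and 10.1 at the CaMKII sites and 3.47 at Lk6.

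**Figure D3:**
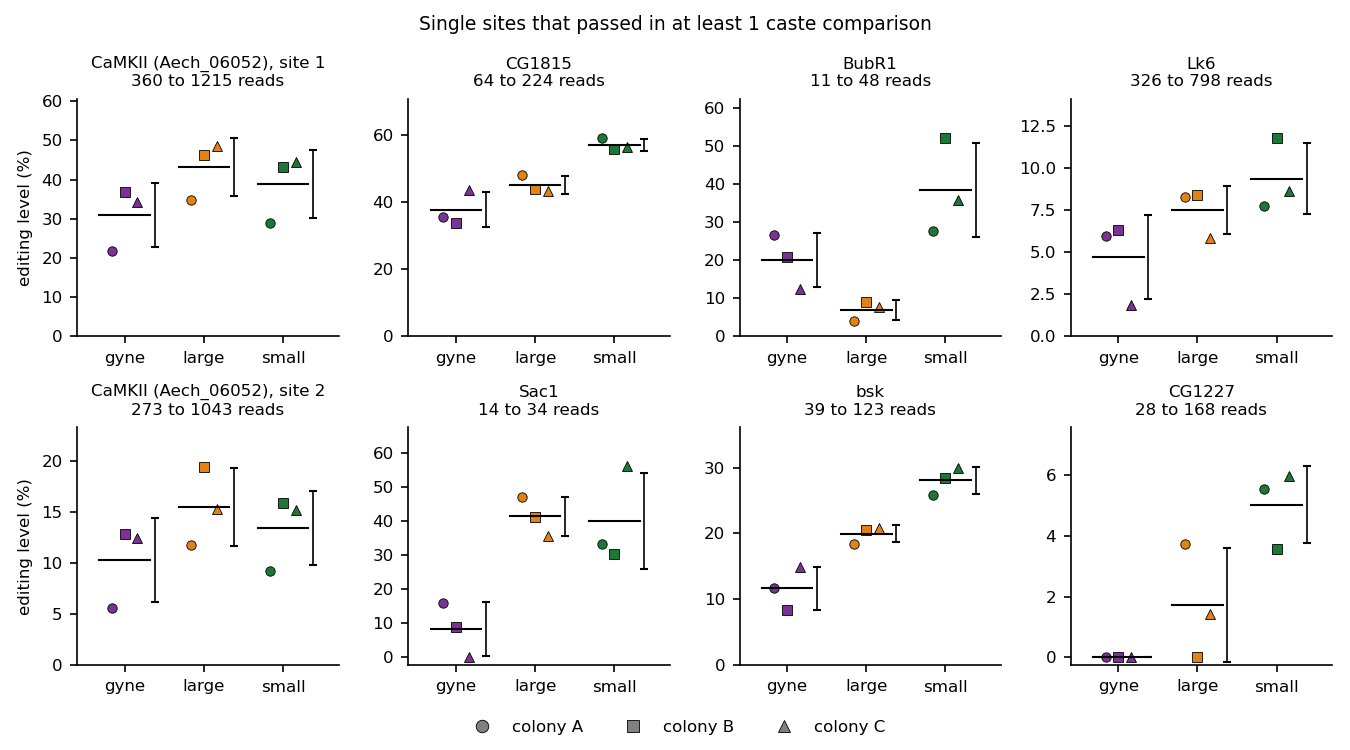
Editing level (y axis, percent) in the 9 RNA libraries at the 8 sites that passed in at least 1 comparison between castes. Lines are caste means, bars ± 1 SD over 3 colonies, symbols mark the colony, and titles give the range of reads per library. The bsk site goes from 11.7% in gynes to 28.1% in small workers with no overlap between castes, whereas at the CaMKII sites the libraries of colony A are the lowest in every caste.

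Among the mitogen-activated protein kinase (MAP kinase) cascades, which relay stress and growth signals through successive kinases, 7 genes held 40 sites, and 3 genes could be tested. All 3 (bsk, hep and Lk6) had small worker libraries clear above gyne libraries, as had 25.1% of all genes, and none passed limma. bsk (Aech_09684) encodes Jun N-terminal kinase, the last kinase of the stress cascade. Its 17 sites lie in the 3' UTR, between positions 411236 and 412723 of scaffold 43. Averaged over them, the level was 9.89, 7.04 and 5.87% in gynes of colonies A, B and C, 9.02, 10.9 and 7.40% among large workers and 11.7, 11.2 and 11.2% among small workers (limma adjusted p = 0.308 for gynes against small workers). Small worker libraries were above all others, and gynes and large workers overlapped.

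One position of bsk passed the test of single sites. At position 412586 the reads with G were 8 of 68, 4 of 48 and 7 of 47 in gynes, 14 of 76, 8 of 39 and 10 of 48 in large workers, and 29 of 112, 35 of 123 and 26 of 87 in small workers. The levels were 11.7% ± 3.28, 19.9% ± 1.31 and 28.1% ± 2.02, with no overlap between any castes, and the site was higher in small workers than in gynes (quasi-binomial adjusted p = 0.0319, 0.199 and 0.0184 with the replicate block, 0.0184 to 0.307 over alternatives). With a shared dispersion it was called in 4 of the 9 fits that left out 1 library, those without a large worker library or without small workers of colony A. The neighbouring site at 412605 had a mean of 26.4% ± 4.54 in gynes and 19.4% ± 5.77 in small workers, which overlap. Across the 17 sites, 13 had a higher mean in small workers and 4 a lower one. For this and the later counts of sites by direction, the share over all sites is not given here. Of all genes with a tested A-to-G site, 82.5% had a higher mean in small workers than in gynes.

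Lk6 (Aech_09454), a kinase that MAP kinases activate and that in flies phosphorylates the translation factor eIF4E, had 2 sites in its 3' UTR. Its mean level was 3.60, 3.17 and 2.48% in gynes, 6.03, 7.50 and 7.17% among large workers and 8.30, 8.81 and 6.93% among small workers. All 6 worker libraries were above the 3 gyne libraries, and the worker castes overlapped. The limma adjusted p was 0.0894 for gynes against small workers and 0.170 among the castes; it ranged from 0.0270 to 0.433 over the alternatives for gynes against small workers and was below 0.05 in 7 of 16. The deeper of its sites, position 1016971 of scaffold 206 with 326 to 798 reads per library, stood at 5.98, 6.34 and 1.84% in gynes, 8.29, 8.41 and 5.88% among large workers and 7.73, 11.8 and 8.67% among small workers. There gynes of colony B were above large workers of colony C, and only small workers were clear of gynes (quasi-binomial adjusted p = 0.0111, 0.221 and 0.00522 with the replicate block, 0.00422 to 0.406 over alternatives). With a shared dispersion the call between gynes and small workers ended without gynes of colony C or small workers of colony B and held in the other 7 fits. The site also passed among the castes (0.0372) and in gynes against both worker castes (0.0476), with 0.357 and 0.342 under the replicate block and 0.0187 and 0.0239 with the block and a shared dispersion. Those calls held in 6 and 3 of the 9 fits that left out 1 library.

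hep (Aech_09940), the kinase directly above Jun N-terminal kinase, had 3 sites in its 3' UTR, none of them A-to-G. Their mean was 2.39, 1.61 and 2.67% in gynes and 2.96, 3.11 and 3.24% in small workers, with large workers from 1.47 to 5.10% across both. The other genes of the cascades had no tested site. msn (Aech_13817), a Ste20-type kinase that in flies feeds the same cascade, had 14 sites, 13 of them intronic. Summed over its sites, 62 of 295 gyne reads were edited (21.0%, 95% Wilson interval 16.8 to 26.0%) and 82 of 297 small worker reads (27.6%, 22.8 to 33.0%). These intervals cover counting error only, since reads carry no molecular identifiers, and they overlap. A read that covers several sites was counted at each of them, so intervals over summed sites can be too narrow even for counting error. Mkk4, Mekk1 and the MAP kinase-activated kinase Aech_16600 had 1 or 2 sites each.

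Of the kinases regulated by calcium, lipids or cyclic nucleotides, 4 of 5 could be tested, all 4 had a higher mean in small workers than in gynes, 3 of them without overlap (25.1% of all genes), and none passed limma. CaMKII (Aech_06052), which turns calcium signals at synapses into lasting changes and is needed for memory in flies and mice, had 14 tested sites. Its mean level was 7.84, 9.54 and 8.77% in gynes, 9.62, 10.2 and 12.8% among large workers and 9.88, 11.1 and 11.2% among small workers. Every worker library was above every gyne library, with gynes of colony B (9.54%) next to large workers of colony A (9.62%) (limma adjusted p = 0.525 for gynes against small workers, 0.216 to 0.843 over alternatives). Relative to the mean of each library the order was the opposite: CaMKII was 0.725 points lower in small workers than in gynes.

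The most edited CaMKII site of this test, position 1020245 in a transposable element within the 3' UTR, was read 360 to 1215 times per library. Its levels were 21.7, 36.9 and 34.2% in gynes, 34.8, 46.2 and 48.5% among large workers and 28.8, 43.3 and 44.5% among small workers. The castes overlapped because colony A was low in each of them: over the castes the colonies averaged 28.5, 42.1 and 42.4%. Within every colony, gynes were lowest and large workers highest. It passed among the castes (quasi-binomial adjusted p = 2.8e-06) and in gynes against large workers (8.1e-06), against small workers (0.000586) and against both (3.6e-06), with adjusted p in the same order of 0.346, 0.594, 0.189 and 0.320 under the replicate block, and 1.7e-07, 2.4e-07, 0.00139 and 1.1e-06 with the block and a shared dispersion. Leaving out gynes of colony A ended all of these calls (adjusted p 0.243 to 0.557 with a shared dispersion). Without small workers of colony B the call for gynes against small workers ended too (0.103), and in the other 7 fits with a shared dispersion all of them held. With the dispersion shared in part, none of these calls held in any of the 9 fits that left out 1 library (quasi-binomial adjusted p 0.130 to 0.794). The site at 1020321, 76 bases away, gave 5.57, 12.9 and 12.5% in gynes, 11.7, 19.4 and 15.3% among large workers and 9.24, 15.8 and 15.2% among small workers, with colony A again lowest in every caste. It passed among the castes (0.0421) and in gynes against both worker castes (0.0327), with 0.346 and 0.320 under the replicate block, and 0.0125 and 0.0171 with the block and a shared dispersion. Without gynes of colony A or large workers of colony B neither call held, and with a shared dispersion they were made in 6 and 5 of the 9 fits that left out 1 library.

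The foraging gene for (Aech_17273) encodes the kinase that cyclic GMP activates and is known for its part in feeding behaviour in flies and in the tasks of ant and bee workers. Its 3 sites lie in a transposable element within the 3' UTR of scaffold 121, at positions 30365, 30366 and 30640, and the first pair could be tested. The mean level of this pair was 3.52, 6.27 and 3.04% in gynes, 8.75, 5.90 and 3.99% among large workers and 7.31, 8.39 and 10.1% among small workers. Small workers were clear of gynes and large workers overlapped with both (limma adjusted p = 0.214 for gynes against small workers). Protein kinase C epsilon (Pkc98E), of the family that diacylglycerol activates, had a single G-to-A site in coding sequence with 0 edited reads in all 3 gyne libraries and 2 of 121, 1 of 188 and 8 of 135 in small workers. The calcium/calmodulin kinase kinase CG17698 stood between 1.5 and 5.65% in every library.

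Other serine/threonine kinases made up 13 genes with 75 sites. Of 10 tested genes, 6 had a higher mean in small workers than in gynes, 2 a lower one and 2 an equal one, 3 did not overlap on the higher side (25.1% of all genes), and none passed limma. CG1227 had 14 tested sites, at a mean level of 3.70, 4.07 and 4.30% in gynes, 4.84, 5.77 and 7.21% among large workers and 6.28, 6.91 and 8.68% among small workers. Gynes were below all 6 worker libraries and the worker castes overlapped (limma adjusted p = 0.214 for gynes against small workers, 0.0304 to 0.788 over alternatives). In 13 of the 14 sites, which share reads and transcripts, the mean was higher in small workers than in gynes. The intronic site at position 314878 had 0 edited reads in gynes, of 92, 63 and 28 reads, which allows a level of up to 1.64% over the caste. Large workers had 4 of 107, 0 of 73 and 1 of 70 edited reads, and small workers 9 of 162, 6 of 168 and 8 of 134. This site was higher in small workers than in gynes (quasi-binomial adjusted p = 0.0487, 0.199 and 0.0276 with the replicate block, 0.0276 to 0.217 over alternatives). With a shared dispersion the call held without 1 large worker library or small workers of colony B, and ended in the other 5 fits that left out 1 library.

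Casein kinase II alpha (CkIIalpha, Aech_14093) is the catalytic subunit of a kinase that is active without a signal. Among the kinase and phosphatase genes with a tested site it had the highest level, 62.1% over its 2 tested sites. These are adjacent intronic bases on scaffold 454. At position 566527 every read was edited in all 6 worker libraries, and 100, 81.3 and 93.1% in gynes, while position 566526 stood at 14.7, 12.5 and 26.7% in gynes, 22.6, 50.0 and 38.5% among large workers and 22.2, 30.8 and 26.1% among small workers. The gene mean was 57.4, 46.9 and 59.9% in gynes, 61.3, 75.0 and 69.2% among large workers and 61.1, 65.4 and 63.0% among small workers, so all worker libraries were above all gyne libraries (limma adjusted p = 0.394 for gynes against small workers and 0.291 among the castes). The difference was larger in large than in small workers, and those castes overlapped. Summed over all 19 sites of the gene, most of them not tested, large workers overlapped with gynes. In colonies A, B and C large workers then stood at 36.1, 22.8 and 26.7% and gynes at 27.5, 18.0 and 26.0%. Small workers, at 31.4, 29.6 and 31.2%, were above all gynes.

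BubR1 (Aech_14823), a kinase of the checkpoint that delays mitosis until chromosomes are attached, was the gene of the 46 with the smallest limma p among the castes (adjusted p = 0.0705). Its 1 tested site, in the 3' UTR at position 181074 of scaffold 366, had 8 of 30, 5 of 24 and 2 of 16 edited reads in gynes, 1 of 24, 1 of 11 and 1 of 13 in large workers, and 10 of 36, 25 of 48 and 9 of 25 in small workers. The levels were 20% ± 7.12, 6.98% ± 2.54 and 38.6% ± 12.4. No castes overlapped, and large workers were the lowest. The quasi-binomial test passed among the castes (adjusted p = 0.0332, 0.346 and 0.0311 with the replicate block, 0.0175 to 0.355 over alternatives), and with a shared dispersion the call ended without gynes of colony C, large workers of colony A or C, or small workers of colony B. No comparison between 2 castes passed (0.228 for gynes against small workers and 0.0605 for large against small workers). The tested site had only 11 to 48 reads per library. Summed with the other site of the gene, 14 bases away and not tested, the castes overlapped. Small workers of colony A (15.6%) were then below gynes of colony A (23.5%), and large workers of colony C (10.5%) above gynes of colony C (6.90%).

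Several genes of this group had a G-to-A site in coding sequence. The site of Ire1, a sensor of unfolded proteins in the endoplasmic reticulum, was the deepest of them with 213 to 537 reads and stood between 1.49 and 5.72% in every library. That of PEK, a kinase that slows translation under the same stress, had 4 of 18 edited reads in large workers of colony B, 2 or 3 edited reads in each of 3 other libraries and 0 in 5. Cdk12, a kinase that in flies phosphorylates RNA polymerase II, had edited reads in large workers of colonies B (2 of 31) and C (5 of 77) and 0 elsewhere. Cdk12 did not pass (limma adjusted p = 0.275 among the castes), although without large workers of colony A it did (0.00361).

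The 4 tyrosine kinases, which act at the membrane in growth signalling, had 14 sites and 1 tested gene. Ack (Aech_07716), a kinase activated by the GTPase Cdc42, had 8 intronic sites with a median of 4.78 reads (per site, mean over libraries). Summed over sites and with the libraries of a caste together, 10.6% of gyne reads (20 of 188), 31.5% of large worker reads and 29.2% of small worker reads (101 of 346) were edited, with Wilson intervals of 6.99 to 15.9%, 24.2 to 40.0% and 24.7 to 34.2%. By colony, gynes stood at 12.8, 10.5 and 7.55%, large workers at 29.5, 47.2 and 18.2% and small workers at 35.5, 28.5 and 22.2%, so gynes were below every worker library. Ack had no tested site and was named after its values were seen.

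Kinases of lipids and small molecules made up 11 genes with 32 sites, of which 7 genes were tested. In 6 the mean was higher in small workers than in gynes, and in 0 were small workers clear of gynes (25.1% of all genes on the higher side). CG34384 (Aech_06104), diacylglycerol kinase eta, which turns the messenger diacylglycerol into phosphatidic acid, was edited at high levels: 13 sites within 128 bases of the 3' UTR on scaffold 501, of which 6 were tested. Their mean was 34.0, 12.7 and 41.2% in gynes, 43.4, 40.4 and 30.2% among large workers and 35.9, 36.2 and 39.7% among small workers. Gynes of colony B were far below the other 8 libraries, which overlap. At its top site, position 19637, that library had 26.1% where the others had 55.6 to 88.2%. Without gynes of colony B small workers were 0.322 points lower than gynes instead of 7.97 points higher. Its relative diacylglycerol kinase theta (CG31140) stood between 8.60 and 12.9% in every library. Ethanolamine kinase (eas), which starts the synthesis of phosphatidylethanolamine and whose fly mutants are prone to seizures, had 1 G-to-A coding site with 99 edited of 1275 reads, 7.16% ± 2.44 in gynes and 8.68% ± 3.72 in small workers. The uridine kinase l(2)k01209 had, at the 1 of its 2 sites that was tested, 4 of 19 edited reads in gynes of colony A and 0 in the other 8 libraries.

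Protein phosphatases and their subunits made up 16 genes with 79 sites. Of 12 tested genes 6 had a higher mean in small workers than in gynes, 5 a lower one and 1 an equal one. In none of them were small workers clear of gynes (25.1% of all genes on the higher side, 1.14% on the lower). The class mean was 3.16% ± 0.357 in gynes, 2.07% ± 0.876 among large workers and 3.05% ± 0.999 among small workers. IA-2, with 22 sites, had 1 tested site at 1.92 to 7.02% in gynes, 0 to 1.92% among large workers and 2.89 to 6.31% among small workers. Summed over all of its sites, the level was 18.8% in gynes (140 of 746 reads), 20.6% among large workers and 18.6% among small workers (632 of 3399 reads), with intervals that overlap. IA-2 had 985 to 1243 reads in small worker libraries and 121 to 333 in the others. The small phosphatase CG5830, which acts on RNA polymerase II, had 1 G-to-A site with 2 of 93, 1 of 118 and 5 of 45 edited reads in gynes and 1 of 318 over the small worker libraries (limma adjusted p = 0.214). The low molecular weight tyrosine phosphatase Aech_00904 had 4 tested A-to-G sites with a mean of 2.44, 6.98 and 3.16% in gynes, 9.72, 4.55 and 6.35% for large workers and 8.83, 4.25 and 8.65% for small workers, which overlap. CG32264, named phosphatase and actin regulator 1, stood between 3.08 and 12.1%. The catalytic subunits flw (protein phosphatase 1 beta), mts (protein phosphatase 2A) and PpV (protein phosphatase 6) had 1 tested site each, between 0 and 11.0% in every library.

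CG4733 (Aech_17828), a regulatory B'' subunit of protein phosphatase 2A, had 18 sites over 19322 bases of scaffold 692 and no tested site. Summed over the sites, gynes of colonies A, B and C had 8.77, 25.4 and 12.9% edited reads, large workers 29.2, 24.2 and 13.8%, and small workers 25.3, 28.2 and 40.9%, each from 62 to 178 reads. Gynes of colony B stood with the workers. With a read minimum of 5, CG4733 had tested sites and passed between gynes and small workers (limma adjusted p = 0.0331). The dual-specificity phosphatase cdc14 (Aech_08580), which in yeast reverses mitotic phosphorylation, held 3 of the 4 coding A-to-G sites of all kinase and phosphatase genes, and was named after its values were seen. They lie on scaffold 750 at positions 243997, 244043 and 244044, all called by the authors in all 9 libraries. With only 2 to 15 reads per library, they had 28 of 29 (96.6%, Wilson interval 82.8 to 99.4%), 33 of 66 (50.0%, 38.3 to 61.7%) and 54 of 65 (83.1%, 72.2 to 90.3%) edited reads over all libraries. The remaining coding A-to-G site, in the kinase-interacting protein syd, had 3 edited of 203 reads. Which amino acids these changes touch was not analysed here.

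Phosphatases of lipids, inositols and small molecules had the most sites of any class: 85 in 11 genes, 84 of them A-to-G. Of 6 tested genes, 4 had a higher mean in small workers and 2 a lower one, and 2 (Sac1 and Mipp1) had small workers clear above gynes (25.1% of all genes). Sac1 (Aech_04589) removes the phosphate of phosphatidylinositol 4-phosphate in the endoplasmic reticulum and Golgi. Its 7 tested 3' UTR sites averaged 20.1, 9.08 and 7.05% in gynes, 20.6, 16.8 and 25.0% among large workers and 24.2, 22.9 and 31.8% among small workers. Small workers were clear of gynes, and large workers overlapped with both because gynes of colony A were above large workers of colony B. The limma adjusted p was 0.114 for gynes against small workers (0.0194 to 0.390 over alternatives), and 0.0416 without gynes of colony A. All 7 sites had a higher mean in small workers. At position 2773774 of scaffold 50 the edited reads were 3 of 19, 3 of 34 and 0 of 15 in gynes, 8 of 17, 7 of 17 and 5 of 14 among large workers and 5 of 15, 7 of 23 and 9 of 16 among small workers. That is 8.20% ± 7.91 against 41.3% ± 5.67 and 40.0% ± 14.1, with all gynes below all workers. The quasi-binomial adjusted p was 0.0424 among the castes, 0.0442 for gynes against small workers and 0.0205 for gynes against both worker castes, with 0.346, 0.204 and 0.320 under the replicate block and 0.0262, 0.0275 and 0.0131 with the block and a shared dispersion. With a shared dispersion these calls were made in 3, 5 and 5 of the 9 fits that left out 1 library, and in none of those without gynes of colony B or C or small workers of colony C.

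Mipp1 (Aech_08662), which takes phosphates off inositol polyphosphates, had 10 tested sites within 139 bases of its 3' UTR. Its mean was 10.6, 9.06 and 11.0% in gynes, 10.2, 15.1 and 8.70% among large workers and 14.2, 11.1 and 15.9% among small workers. Small workers were above gynes, with 11.1% in colony B next to the 11.0% of gynes of colony C, and large workers ranged over both (limma adjusted p = 0.467 for gynes against small workers). Aech_01708 did not separate the castes: its mean was 16.4, 24.7 and 24.2% in gynes, 16.8, 18.3 and 19.7% among large workers and 22.0, 20 and 19.4% among small workers. All castes overlapped, and 8 of its 14 sites had a higher and 6 a lower mean in small workers than in gynes. On log odds the sign of its difference was the opposite (0.0082 higher in small workers). Presqualene diphosphate phosphatase (Aech_11828) stood at 9.18% ± 2.18, 8.68% ± 1.78 and 10.7% ± 5.05. Apf, which splits dinucleoside tetraphosphates, had 1 tested site between 0 and 14.3%.

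Proteins named for a kinase or phosphatase that they bind or resemble made up 7 genes with 23 sites. All 3 tested ones had a higher mean in small workers than in gynes, 2 without overlap (25.1% of all genes). CG1815 (Aech_05829), named protein kinase C-binding protein 1, had 4 tested intronic sites between positions 845120 and 845137 of scaffold 207. Their mean was 20.6, 16.7 and 18.2% in gynes, 28.0, 24.0 and 28.8% among large workers and 27.3, 28.5 and 27.4% among small workers. Gynes were below all workers, and the worker castes overlapped. The limma adjusted p was 0.100 for gynes against small workers and 0.174 among the castes; over the alternatives for gynes against small workers it was 0.00888 to 0.433, and below 0.05 in 4 of 17. At position 845137 the level was 35.7, 33.9 and 43.8% in gynes, 48.2, 43.9 and 43.3% among large workers and 59.1, 55.8 and 56.5% among small workers, at 64 to 224 reads. Small workers were clear of both other castes there. It passed between gynes and small workers (quasi-binomial adjusted p = 0.00171, 0.189 and 0.000607 with the replicate block, 0.000607 to 0.211 over alternatives), and with a shared dispersion this call held in all 9 fits that left out 1 library (0.00150 to 0.0356). It also passed among the castes (0.00599) and for gynes against both worker castes (0.0445), with 0.346 and 0.320 under the block and 0.00219 and 0.0235 with the block and a shared dispersion. These were called in 8 (not without gynes of colony B) and 3 of the 9 fits. At the nearby position 845135, gynes of colony A (41.3%) stood with the workers (38.9 to 47.6%) and the other gynes at 23.7 and 23.1%. CG4041, a kinase-like protein with a TBC domain, had 8 sites within 24 bases of its 3' UTR, all with a higher mean in small workers, and 5.86% ± 1.08, 9.93% ± 3.76 and 10.6% ± 1.46 in the castes (limma adjusted p = 0.241 for gynes against small workers).

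**Figure D4:**
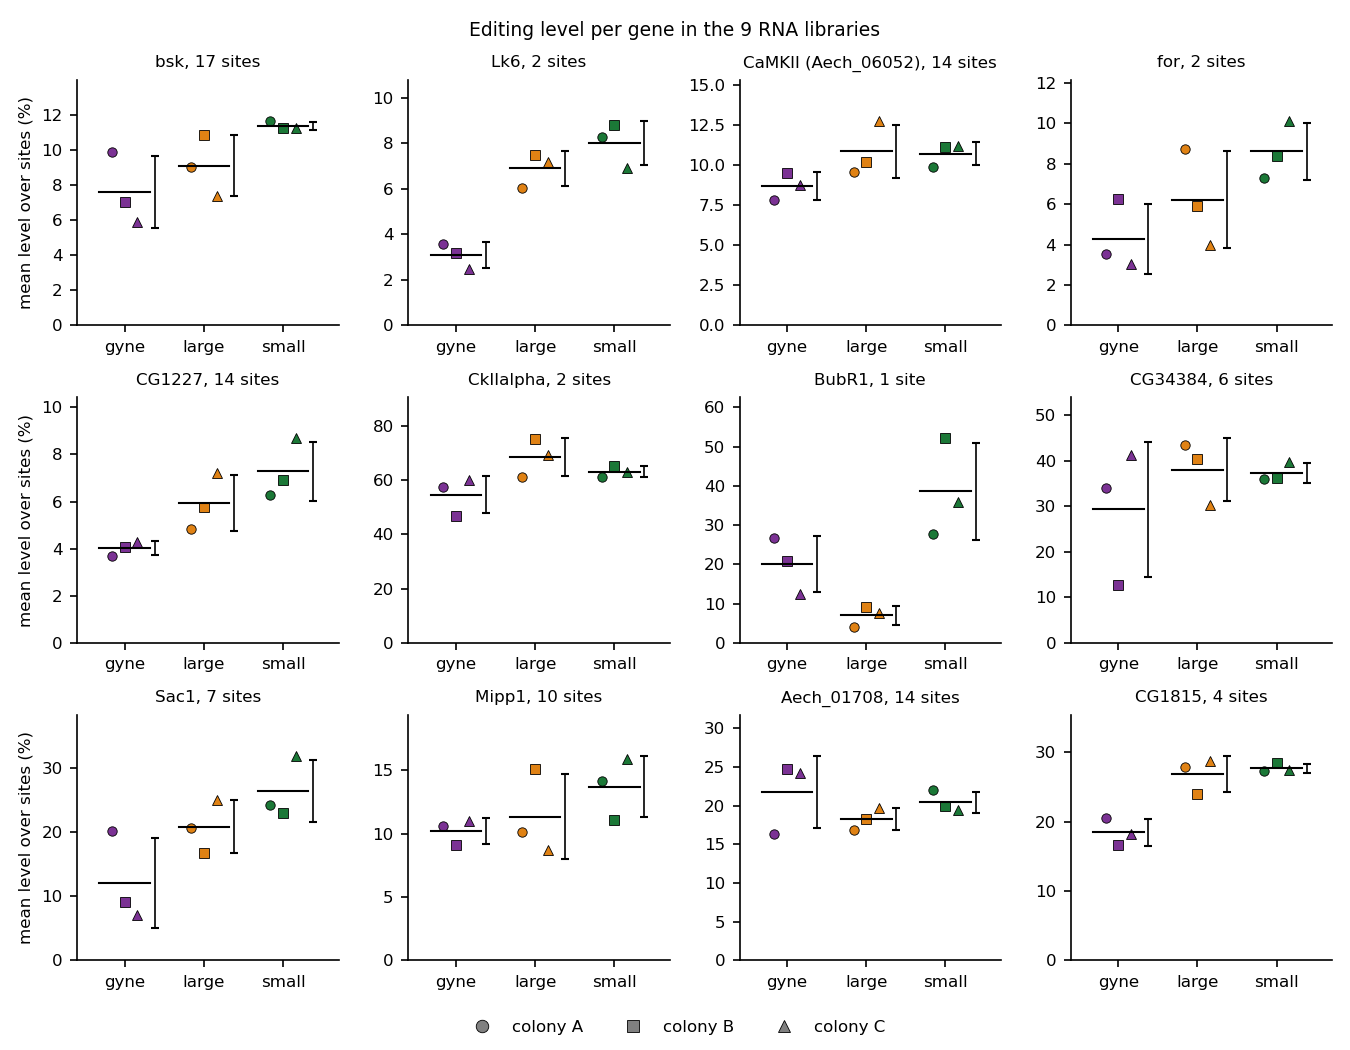
Mean editing level over the tested sites (y axis, percent) in the 9 RNA libraries for 12 kinase and phosphatase genes. Lines are caste means, bars ± 1 SD over 3 colonies, and symbols mark the colony. Worker libraries are all above gyne libraries in Lk6, CaMKII, CG1227, CkIIalpha and CG1815, small workers alone are clear of gynes in bsk, for, Sac1 and Mipp1, large workers are lowest in BubR1, and the castes overlap in CG34384 and Aech_01708.

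Sites of a gene differed in level from one another in every caste. The following correlations are across the sites of 1 gene between pairs of libraries, and sites of 1 gene share reads and transcripts. Over the 14 sites of CaMKII the median correlation between libraries was 0.906, with levels from 3.32 to 37.7% over all libraries. It was 0.871 over the 14 sites of Aech_01708 (3.73 to 73.9%), 0.703 over the 17 sites of bsk (1.06 to 20.9%) and 0.434 over the 14 sites of CG1227 (1.84 to 18.4%). In CG1227, 9 of the 14 sites were under 5%. Adjacent bases could differ widely: in CaMKII position 1020245 stood at 37.7% over all libraries and position 1020244 at 5.82%, and in Aech_01708 position 1449939 stood at 57.2% and position 1449938 at 8.88%.

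**Figure D5:**
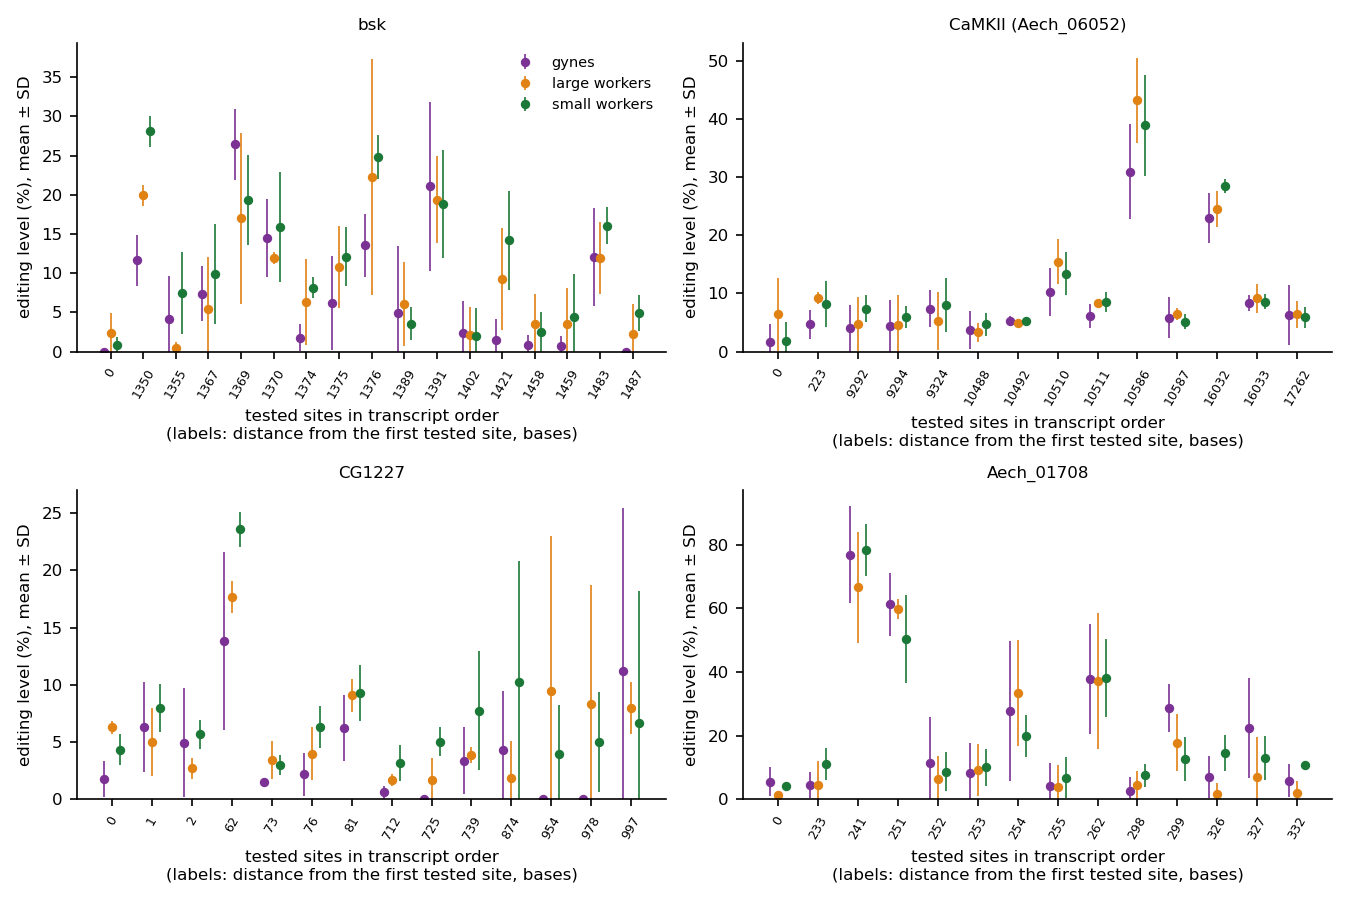
Editing level (y axis, percent, mean ± SD over 3 colonies, bars end at the axis where they would pass below 0) at each tested site of bsk, CaMKII, CG1227 and Aech_01708, in transcript order with the distance from the first tested site in bases. The bsk site 1350 bases from the first goes from 11.7% in gynes to 28.1% in small workers, and the CaMKII sites over 20% are 2 of 14.

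The other 28 genes had no tested site. At their 95 sites, the median depth of a library was 6 reads. Summed over sites and over the libraries of a caste, 19 of the 28 were higher in small workers than in gynes and 7 lower, with no test. Of all genes without a tested site, 68.8% were higher and 23.2% lower. CG5567, a phosphoglycolate phosphatase homolog that was named after its values were seen, was edited most heavily among those with many sites: 8 intronic sites within 412 bases of scaffold 110, with 54 of 96 reads (56.3%, Wilson interval 46.3 to 65.7%) in gynes, 59.5% among large workers and 141 of 209 (67.5%, 60.9 to 73.5%) among small workers. The intervals of gynes and small workers overlap, and the difference was not tested. Intervals of gynes and small workers lay apart, higher in small workers, in 5 of the 28 genes and lower in 0 (15.6% and 1.36% of all genes without a tested site): Ack, CG4733, the tyrosine kinase Fps85D, the dephospho-CoA kinase Dpck and Aech_13665, a homolog of ectonucleotide pyrophosphatases. In Fps85D, 21 of 81 gyne reads (25.9%, 17.6 to 36.4%) and 91 of 186 small worker reads (48.9%, 41.8 to 56.1%) were edited. In Dpck these were 10 of 139 (7.19%, 3.95 to 12.7%) and 37 of 155 (23.9%, 17.8 to 31.2%), and in Aech_13665 11 of 37 (29.7%, 17.5 to 45.8%) and 37 of 56 (66.1%, 53.0 to 77.1%). These genes too were named after their values were seen, and the intervals leave out the spread between colonies. They also count a read at each site it covers, so they can be too narrow, and intervals that lie apart are not a test. By library, gynes and small workers overlapped in Fps85D, with 44% in gynes of colony C and 41.0% in small workers of colony A. They overlapped in Dpck too, with 8% and 8.70% in gynes of colonies A and B and 7.14% in small workers of colony A. In Aech_13665 gynes reached at most 43.75% and small workers at least 46.7%. The neural protein kinase C Pkc53E, which calcium and diacylglycerol activate, was edited at a high level on few reads: 12 of 19 in gynes and 9 of 11 in small workers. The splicing kinase Doa was lower in small workers (2 of 33 reads) than in gynes (8 of 41), with overlapping intervals. The uridine-cytidine kinase CG6364, the receptor-type phosphatase Lar, the histone kinase Haspin, the receptor tyrosine kinase Ror, the guanylate kinase CG11811, the alkaline phosphatase CG16771 and CG6746, Aech_14573, Aech_15612, Aech_16831, CG1271, CG15771, aru, MKP-4 and CG15743 had 1 to 3 sites each. Summed over the 2 sites of Lar, 1 of them A-to-G, 1 of 58 gyne reads, 17 of 66 large worker reads and 6 of 145 small worker reads were edited. Large workers of colonies A, B and C stood at 15, 10 and 36.1% there, of 20, 10 and 36 reads.

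The tested genes not yet described had 1 tested site each, and the number of libraries with edited reads there differed among them. At that site the receptor tyrosine kinase sev and the phosphatase subunit CG3626 had them only in gynes of colony A (8.82% in each), Nak only in large workers of colony A (10.3%), PNUTS only in large workers of colony B (5.46%), and CG42271 and Aech_07769 only in small workers, of colony A (6.49%) and of colony C (14.8%). At its site Akt1, the kinase of the insulin pathway, had edited reads in gynes (1.96%) and large workers (10.7%) of colony C. NiPp1, Ptp10D, CG5828, CG6218, CG7766, Pfrx and sti were at their tested site at 0 in at least 2 libraries and at most at 11.1% in any.

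Partners of kinases and phosphatases in signalling (cyclins, 14-3-3 proteins, calmodulin, cyclases, phosphodiesterases, small GTPases and their regulators, arrestins and G protein subunits) gave 33 genes with 124 sites, of which 17 genes and 42 sites were tested. None of the 17 genes passed limma in any comparison. Of the 42 sites, 3 passed between gynes and small workers (8.23% of all sites) and 1 between gynes and both worker castes (4.13%). All of these were higher in workers, and over all sites 8.09% and 3.95% were called on that side. Of the 17 genes, 8 had a higher mean in small workers than in gynes and 9 a lower one, and 5 were clear on the higher side (25.1% of all genes) and 1 on the lower (1.14%). Their mean level was 4.05% ± 0.497 in gynes, 3.98% ± 0.874 among large workers and 4.25% ± 0.327 among small workers. Beside the 6.62, 7.39 and 8.50% of the kinase and phosphatase genes these levels are lower, a difference that was not tested.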

How the data were processed

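Per the labels' protocols, strand-specific libraries of polyadenylated RNA from heads and DNA libraries from bodies were sequenced as paired reads of 90 bases. BWA 0.5.9-r16 is listed in the submitters' processing notes, and the method of calling sites is not given in the sources used here. Per the file headers, 1 table of sites in assembly Aech_2.0 was deposited. Each of its cells packs unedited and edited read counts of a library, and the authors' calls are marked in the cells. Their unit is therefore other than a plain count column, and counts were read from the packed cells. Protein names and fly orthologs are those of the table, for all 74 genes.

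The level was edited reads divided by all reads. Genes were tested with limma 3.58.1 in R 4.3.3 on arcsine-square-root mean levels, sites with a quasi-binomial logistic model (Pearson dispersion moderated by squeezeVar of limma, floor of 1; with all libraries and no block its prior degrees of freedom were infinite, so 1 dispersion was shared), each over the whole series, with 5 comparisons and Benjamini-Hochberg adjustment at 0.05. Colony letters pair the samples, since the labels name the colony. Deviations of gene levels from caste means correlated at -0.0463 to 0.0683 (median -0.0107) within colonies and -0.100 to 0.0631 (median -0.000894) between them. Intervals are 95% Wilson intervals, and the limit for a count of 0 is 3 reads of the total. Where the sites of a gene were summed, a read was counted at each site it covers.

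The members and all lists were chosen with earlier results of these data known. Genes were placed in 8 classes by hand from protein names, because the planned word patterns misplaced some kinases. By the rule for named genes, 19 genes are the 10 with the most sites, the 8 with the highest mean level, the 8 with the smallest p among castes, those with a called site or a tested coding A-to-G site (of which there were 0), and the 3 with the largest fall and the 3 with the largest rise from gynes to small workers. The other genes named were picked after their values were seen. Python 3.11.15 with pandas 2.3.3, NumPy 2.4.6, SciPy 1.17.1 and matplotlib 3.10.9 made tables and plots. Sequences around sites were not analysed here.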

Additional observations from a re-analysis of the deposited data

How the results depend on the processing

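At 10 reads per library, 28 of 74 genes and 229 of 378 sites were not tested. Without the replicate block (colony) the tests called 8, 16, 0, 0 and 4 of all genes (among castes, gynes against small, gynes against large, large against small, gynes against both workers) and 364, 471, 27, 50 and 236 of all sites. With the replicate block, which pairs the samples by colony, 0 genes and 0 sites were called in each. That fit also changed the dispersion (prior degrees of freedom 1.12, not infinite): with the replicate block and 1 shared dispersion, 517, 597, 45, 77 and 314 of all sites and 8, 9, 2, 0 and 6 kinase and phosphatase sites were called. Limma on arcsine-square-root levels and each site's own dispersion (an alternative chosen after seeing the data) also called 0 sites. Sites taken relative to the overall shift gave 76, 94, 6, 7 and 33, and 1, 0, 0, 0 and 0 kinase and phosphatase sites. A trend on depth gave 7 of all sites for gynes against large workers and 3 kinase and phosphatase sites for gynes against both workers. The robust setting gave 0 and 3 kinase and phosphatase sites in these comparisons. The counts over all sites that belong beside these kinase and phosphatase counts are not given here, so they cannot be set against a share.

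Among castes, 0 genes were called with 5 reads, 4 with 20 reads, 0 on log odds, 3 on summed reads, 20 with A-to-G sites alone, 0 relative to the library mean and 65 among genes with at least 3 sites. For gynes against small workers the counts were 25 with 20 reads, 7 on log odds, 59 with A-to-G sites alone, 1 relative to the library mean and 93 with 3 sites. Gynes against large workers gave 6 with 3 sites. Large against small workers gave 1 with 5 reads, 2 with A-to-G sites and 11 with 3 sites. Gynes against both workers gave 0 with 5 reads, 0 on log odds, 32 with A-to-G sites, 1 relative to the library mean and 60 with 3 sites. The number of genes tested differed between some settings. With A-to-G sites alone it was 434, of which 23 were kinase and phosphatase genes. The count over all genes with 5 reads for gynes against small workers is not given here. Kinase and phosphatase genes were then called as follows: among castes 1 with A-to-G sites (BubR1) and 2 with 3 sites (Sac1, CG1815); gynes against small workers 2 with 5 reads (Sac1, CG4733), 1 with 20 reads (Lk6), 2 with A-to-G sites (CG1815, Lk6) and 3 with 3 sites (Sac1, CG1815, CG1227); gynes against both workers 2 with A-to-G sites (CG1815, Lk6) and 2 with 3 sites (Sac1, CG1815).

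Leaving out 1 library gave 0 to 14, 0 to 41, 0 to 1, 0 to 1 and 0 to 27 genes, 1 to 93, 75 to 253, 0 to 2, 0 to 2 and 2 to 83 sites, 0 to 1, 0 to 3, 0 to 1, 0 to 1 and 0 to 2 kinase and phosphatase genes, and 0 to 1, 0 to 2, 0 to 0, 0 to 0 and 0 to 1 of their sites. The prior degrees of freedom of the sites were then 4.58 to 15.8. Leaving out 1 library with a shared dispersion gave 233 to 393, 281 to 486, 6 to 29, 12 to 58 and 131 to 231 sites, and 3 to 6, 3 to 7, 0 to 2, 0 to 1 and 2 to 4 kinase and phosphatase sites. Both fits with a shared dispersion were chosen after seeing the data. The 3 genes were Sac1, CG1815 and Lk6 without gynes of colony A, Cdk12 was called without large workers of colony A, and 0 kinase and phosphatase sites were called for gynes against small workers without gynes of colony B. The mean difference of the 46 genes between gynes and small workers (1.89 points) was 1.59 to 2.30 when 1 library was left out, 2.80 with 5 reads, 4.02 with A-to-G sites, 0.843 as a median over genes, 3.07 with sites weighted equally and -0.860 relative to the library mean. That between gynes and large workers (0.773) was 0.444 (without large workers of colony A) to 1.18 (without gynes of colony A), -0.109 as a median, 1.71 with sites weighted equally and -0.488 relative to the library mean. That between large and small workers (1.11) was 0.817 to 1.44, 2.67 with A-to-G sites and -0.372 relative to the library mean. The difference between small workers and gynes changed sign in single genes: Aech_01708 on log odds (0.0082) and without gynes of colony B (0.173, and -4.00 without gynes of colony A), IA-2 with 5 reads (-2.22), on log odds (-0.0491), relative to the library mean (-2.41) and without 1 library (-0.743 to 1.94), and, relative to the library mean, CaMKII (-0.725) and Pkc98E (-0.0412). Without gynes of colony B it did so in CG34384 (-0.322) and Apf (0.0131, and down to -5.54 without gynes of colony C). The cause was not tested.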
